A study of Homo sapiens with 71 samples.

Results

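Hepcidin is the liver hormone that lowers iron export into blood, and the 10 genes described here cover its control and the storage of iron inside the cell. They are HAMP, INHBB, ID1, HFE, IREB2, ACO1, FTH1, FTL, FBXL5 and NCOA4, chosen by symbol from a table with 31010 gene symbols. HAMP, INHBB and IREB2 were put on the list because of their site-against-control values in these same libraries, and the other 7 for their roles with those results in view. The changes of the members are therefore given as a description: calls and counts of small p values are stated for them, no p value is printed for them, and nothing is supported by them. All 10 passed the filter on low counts.

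HepG2 cells, a human hepatoma line, grew for 72 h and then spent 48 h in medium made with filtered river water. That water, from 1 of 16 tributaries of the Great Lakes, was 75% of the medium. The controls (CTRL) spent the same time in medium with purified water, and the line and medium were common to every group. Site codes are those of the labels: BRWI, CRMI, CROH, FRWI, GRMI, GRNY, IHIN, JRMI, LRMN, MAWI, MIWI, MROH, ORNY, RRMI, SRMI and VROH. Each site had 4 dishes (3 for MIWI) and the controls had 8; dishes came from pooled flasks of 1 line, so the spread between them is that of dishes, not of donors, and each site is 1 water sample.

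In liver, HAMP transcription is driven by bone morphogenetic protein (BMP) ligands through SMAD factors and by interleukin 6 through STAT3, and activin B can feed into the SMAD route. Inside cells, the iron regulatory proteins encoded by ACO1 and IREB2 bind hairpins called iron-responsive elements in messenger RNAs. When iron is scarce this binding blocks translation of ferritin, so transcript levels alone do not give ferritin protein levels.

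The HAMP promoter is shown because HAMP had the largest difference among the 10 genes. Of the 10 symbols, 9 had an entry among the RefSeq promoter windows of build GRCh38.p14. The 250 bases before the HAMP start, chr19:35282278-35282527 on the plus strand, run 5′ to 3′ as below, with capitals marking GGCGCC, the core of a BMP-responsive element, and a match to TTCNNGGAA, a STAT site.
HAMP promoter: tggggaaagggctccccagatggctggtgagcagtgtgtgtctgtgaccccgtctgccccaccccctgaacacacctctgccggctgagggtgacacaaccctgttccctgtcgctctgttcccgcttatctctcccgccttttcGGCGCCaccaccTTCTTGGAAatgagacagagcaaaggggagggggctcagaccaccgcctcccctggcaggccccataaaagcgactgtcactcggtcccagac
GGCGCC began 105 bases before the start and was present in 16.4% of all 35116 windows of 250 bases, searched on both strands. TTCNNGGAA began 93 bases before the start, did not overlap GGCGCC, and was present in 3.86% of those windows. INHBB held GGCGCC at 2 positions. ACO1 held it at 1 position, 123 bases before the start, and 1 of the IREB2 windows held it 11 bases before the start. Among the members' windows only that of HAMP held TTCNNGGAA. The windows of ID1, HFE, FTL, FBXL5 and NCOA4 held neither. The ferritin light chain transcript FTL is shown for its iron-responsive element, which begins in the first exon. The stretch is chr19:48965334-48965358 on the plus strand, and capitals mark the loop CAGTGN. This stretch stops at the last base of the FTL window, so the element is shown only in part.
FTL iron-responsive element: tctcttgcttcaaCAGTGTttggac
The loop letters occurred on the transcript strand in 6.36% of the 50-base stretches after a start. These matches describe the letters in the windows, and no factor's binding was measured.

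TempO-Seq ligates and sequences probe pairs that sit side by side on a transcript. Its estimated counts per gene were scaled here to CPM, counts per 1e6 counts of the library. Levels are compared between samples for a gene and never between genes. In places all dishes of a site are said to lie above or below every control. The share of all features that separate in this way was not counted, so such separation has no background here. Totals (M, 1e6 counts) ranged over 2.91 to 9.89 M among the 62 site libraries used and over 8.18 to 14.5 M among the 8 controls. VROH 2, with 8840 counts, was left out. CRMI 1 and SRMI 3 stood apart from their sites, with SDs of 1.87 and 1.18 for their log2 differences from the group over 3312 features, where the other libraries had 0.154 to 0.825. They stayed in the fit, and values without them are given beside the calls they change. The summed level of 9 hepatocyte markers was 121400 to 225800 CPM in site libraries and 139600 to 196800 CPM in controls. For 11 markers of other cell types it was 10.6 to 102 CPM in site libraries and 45.6 to 85.9 CPM in controls, most of it CD68, with KDR and PTPRC at 0 in every library.

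HAMP, on chromosome 19 from 35282528 to 35285143 (plus strand), encodes hepcidin. At LRMN it had 0.660, 1.78, 1.41 and 1.26 CPM, against a lowest value of 16.4, a median of 21.2 and a highest of 28.2 CPM in the 8 controls. No LRMN dish came near a control dish. The mean was 1.28 ± 0.47 CPM (SD, n = 4) at LRMN and 21.1 ± 3.87 CPM (SD, n = 8) in controls, a log2 change of -4.04 ± 0.32 (SE), or 0.0608 of the control level. The LRMN values rest on 29 counts in all, and a 95% Poisson interval for their pooled level, covering counting error alone, ran from 0.843 to 1.81 CPM.

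At BRWI, HAMP had 3.73, 2.77, 7.10 and 7.16 CPM, again with every dish below the lowest control. Its mean of 5.19 ± 2.27 CPM (SD, n = 4) gave a log2 change of -1.96 ± 0.26 (SE), or 0.257 of the control level. The LRMN and BRWI dishes did not overlap each other either. Fewer cells carrying the transcript and less transcript per cell cannot be told apart in such bulk samples.

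Only these 2 sites were called for HAMP, that is, had a Benjamini-Hochberg adjusted p under 0.05 over all tested features. The rule used this contrast, and as background the same test called 8.63% of the 6943 features at LRMN and 0.475% at BRWI. In order of mean level the next sites were CRMI at 13.7, GRMI at 13.9, MIWI at 14.7 and JRMI at 17.6 CPM. Below every control were 3 of 4 dishes at CRMI, 3 of 4 at GRMI and 2 of 3 at MIWI. HAMP had an unadjusted p under 0.05 at 4 sites, which were LRMN, BRWI, CRMI and GRMI. Of all 6943 features, 302 (MIWI) to 1677 (LRMN) had such a p at a site, which is the background for counts of this kind. Without CRMI 1, which had 7.55 CPM, CRMI averaged 15.8 ± 4.63 CPM (SD, n = 3). From CRMI upward, neighbours in the order overlapped in their dishes, up to ORNY at 26.4 and VROH at 26.6 CPM. HAMP was below controls at 10 sites and above at 6, and at 11 of 16 sites it lay within 0.5 log2 units of them. Over site means its level and the log2 library total had r = 0.285 (n = 16), and r = 0.67 without LRMN; the part of depth in the result was not tested.

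**Figure D1:**
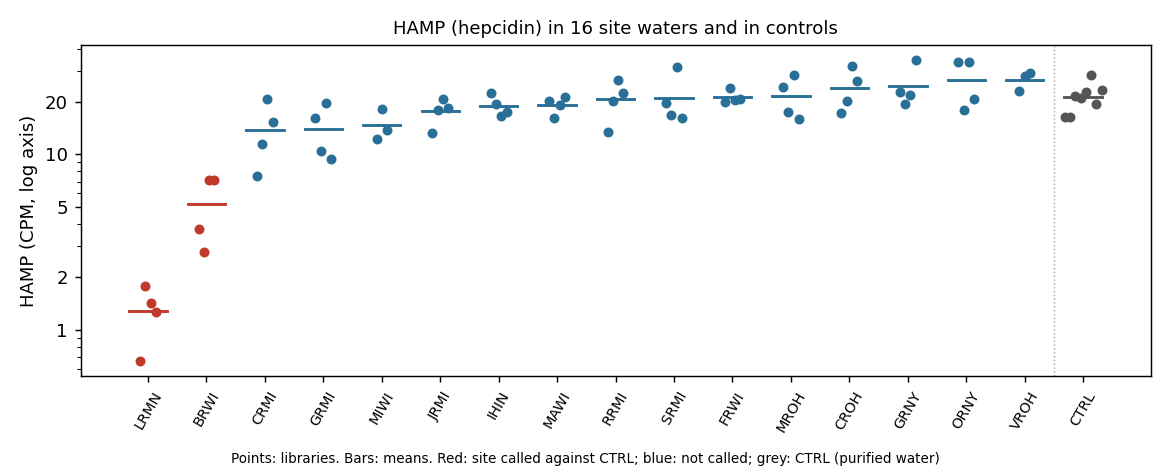
HAMP level in CPM (log axis) for each library, by site in order of mean level and then CTRL at the right; points are libraries and bars are means. The LRMN dishes sit between 0.660 and 1.78 CPM and the BRWI dishes between 2.77 and 7.16 CPM, all below the lowest control at 16.4 CPM.

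INHBB encodes the beta B subunit that forms activin B, a ligand that can raise hepcidin. It lies on chromosome 2 from 120346136 to 120351803 (plus strand). At BRWI it had 1.99, 3.46, 2.06 and 2.23 CPM and at RRMI 2.24, 2.14, 2.54 and 3.13 CPM, against 4.29 to 6.18 CPM (median 4.85) in the 8 controls. Both sites lay wholly below the controls. The means were 2.44 ± 0.69 CPM at BRWI, 2.52 ± 0.44 CPM at RRMI (SD, n = 4 each) and 5.10 ± 0.70 CPM in controls (SD, n = 8). The log2 changes were -1.105 ± 0.22 at BRWI and -1.035 ± 0.20 at RRMI (SE).

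INHBB went the other way at MAWI, where it had 6.43, 7.33, 12.0 and 7.56 CPM. Every MAWI dish was above the highest control, and the log2 change was 0.70 ± 0.18 (SE). The call ended without MAWI 3, at a log2 change of 0.48, and without control 7, at 0.66. At MROH the 4 dishes, at 6.38 to 10.3 CPM, were likewise above every control, with a log2 change of 0.63 ± 0.18 (SE) that was not called. At VROH the 3 dishes, at 3.43 to 3.83 CPM, were below every control without a call. Background shares of calls were 1.74% at RRMI, 1.56% at MAWI, 0.0144% at MROH and 0% at VROH, where edgeR called no feature, 480 had an unadjusted p under 0.05 and DESeq2 called 8. INHBB had an unadjusted p under 0.05 at 8 of 16 sites. Its counts were low, with a median of 27 per library.

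Over the 17 group means of log2 CPM the Pearson r of INHBB and HAMP was 0.216, and 0.374 without CRMI and LRMN (n = 15). The group means, the controls included, share scaling. BRWI was the one site called for both genes. LRMN had the lowest HAMP while its INHBB, at 3.46, 6.25, 4.00 and 4.49 CPM, overlapped the controls. RRMI had low INHBB and a HAMP level of 20.7 ± 5.52 CPM (SD, n = 4), which overlapped the 21.1 CPM of controls.

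ID1, a BMP target that encodes an inhibitor of DNA binding, lies on chromosome 20 from 31605289 to 31606510 (plus strand). Its dishes varied widely within groups. At LRMN it had 212, 1054, 411 and 191 CPM, against 428 to 1896 CPM (median 1067) in the 8 controls. The dishes at LRMN were below the lowest control in 3 of 4 cases, and the log2 change of -1.17 ± 0.59 (SE) was not called. At the other 15 sites the log2 change lay between -0.66 at JRMI and 0.41 at MROH. No site was called by edgeR or DESeq2, and none had an unadjusted p under 0.05. GRNY shows the spread, with 818, 372, 316 and 3759 CPM in its 4 dishes. At CRMI the library CRMI 1 had 142 CPM, and the log2 change there was -0.40 with it and -0.04 without it. At SRMI the log2 change of ID1 was 0.22 with all dishes and -0.48 without SRMI 3, VROH 2 and CRMI 1, neither called.

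**Figure D2:**
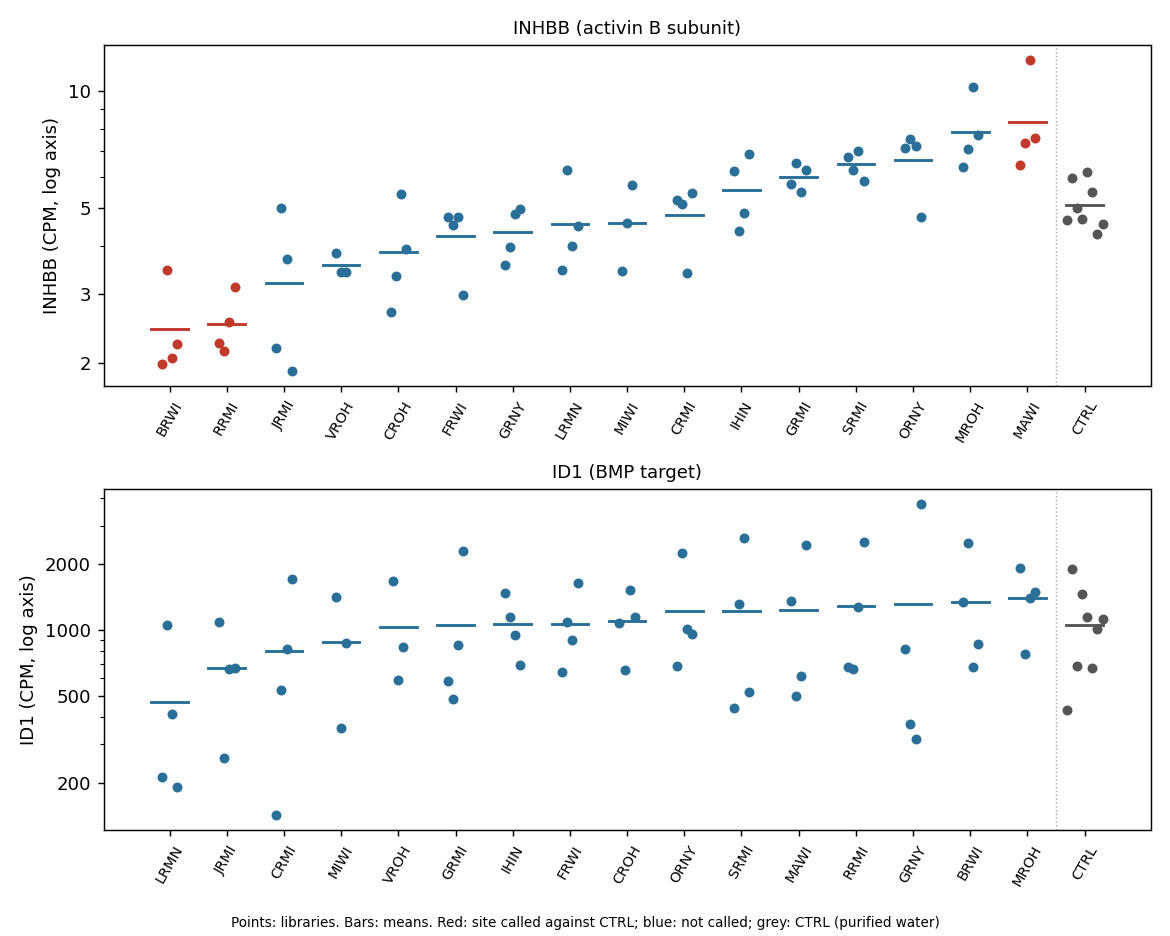
INHBB (top) and ID1 (bottom) levels in CPM (log axes) for each library, by site in order of mean level and then CTRL at the right; points are libraries, bars are means, red marks called sites. INHBB is lowest at BRWI and RRMI and highest at MAWI, while ID1 dishes of 1 group span a wide range, as at GRNY.

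HFE, whose protein signals body iron to hepcidin and is altered in hereditary haemochromatosis, lies on chromosome 6 from 26087429 to 26098343 (plus strand). It was called at CRMI, with 31.9, 26.0, 26.1 and 21.3 CPM against 17.04 to 23.7 CPM (median 19.1) in the 8 controls, a log2 change of 0.44 ± 0.11 (SE). The background share there was 7.30%. The highest of these dishes was CRMI 1, which stood apart; without it the log2 change was 0.33 and the call ended. HFE was above the controls at 15 of 16 sites by small amounts, with a highest log2 change of 0.15 outside CRMI, at GRNY. These sites share the same 8 control dishes, so the 15 are not independent.

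IREB2, which encodes iron regulatory protein 2, lies on chromosome 15 from 78437431 to 78501453 (plus strand). At LRMN it had 129, 221, 186 and 149 CPM, against 78.3 to 130 CPM (median 101.5) in the 8 controls. The LRMN dishes were above the highest control in 3 of 4 cases, and the called log2 change was 0.75 ± 0.22 (SE). The call ended without LRMN 2, at 0.60, and without LRMN 3, at 0.71. Without VROH 2, CRMI 1 and SRMI 3 the change was the same size, 0.75 ± 0.16 (SE). At SRMI, SRMI 3 had 321 CPM and the other dishes 76.6 to 91.6 CPM; the log2 change there was 0.50 with SRMI 3 and -0.26 without it.

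ACO1 encodes cytosolic aconitase, which becomes iron regulatory protein 1 when it loses its iron-sulphur cluster. It lies on chromosome 9 from 32384643 to 32454769 (plus strand). At LRMN it had 118, 103, 115 and 112 CPM, against 81.4 to 101 CPM (median 89.9) in controls, with every LRMN dish above every control. At ORNY it had 66.4, 62.1, 59.98 and 84.4 CPM, and 3 of the 4 dishes were below every control. The log2 changes of 0.32 ± 0.11 at LRMN and -0.40 ± 0.11 at ORNY (SE) were not called by edgeR on the 70 libraries, and DESeq2 called both. DESeq2 called more features in general. Of 6943 it called 725 at LRMN and 205 at ORNY, where edgeR called 599 and 110. Without VROH 2, CRMI 1 and SRMI 3 the test called ACO1 at LRMN, ORNY and CRMI, with log2 changes of 0.32, -0.40 and -0.34. In that fit the background shares were 17.6% at LRMN, 4.09% at ORNY and 8.01% at CRMI. At ORNY the call appeared in 34 of the 70 fits that left out a single library.

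FTL, on chromosome 19 from 48965309 to 48966879 (plus strand), encodes the ferritin light chain. At GRNY it had 361, 622, 469 and 361 CPM, against 172 to 345 CPM (median 226) in the 8 controls, and every GRNY dish was above every control. At MAWI it had 128, 176, 138 and 127 CPM, with 3 of 4 dishes below every control. The means were 453 ± 123 CPM at GRNY, 142 ± 23.2 CPM at MAWI (SD, n = 4 each) and 246 ± 66.7 CPM in controls (SD, n = 8). The log2 changes were 0.88 ± 0.24 at GRNY, 0.64 ± 0.24 at LRMN and -0.79 ± 0.26 at MAWI (SE). FTL was called at no site by edgeR on the 70 libraries, with an unadjusted p under 0.05 at 9 sites. DESeq2 called it at GRNY and MAWI. Of 6943 features DESeq2 called 109 at GRNY and 183 at MAWI, where edgeR called 37 and 108. Without CRMI 1 alone, as without the 3 libraries, edgeR called it at GRNY, LRMN and MAWI, with log2 changes of 0.88, 0.64 and -0.79. At CRMI the FTL log2 change was -0.22 on the 70 libraries and -0.68 without the 3, neither called. The background shares at GRNY and MAWI were 9.17% and 4.71% without the 3 libraries, and 0.533% at GRNY with the 70.

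IREB2, ACO1 and FTL varied together over the sites. Across the 17 group means of log2 CPM, r was 0.904 for IREB2 with ACO1, 0.924 for IREB2 with FTL and 0.870 for ACO1 with FTL. Without CRMI and LRMN these were 0.875, 0.922 and 0.853 (n = 15 groups). All 3 genes were above the controls at LRMN, GRNY, FRWI, JRMI, CROH and VROH, and below them at ORNY, MAWI, IHIN, MIWI, MROH, GRMI and CRMI. The ACO1 change at VROH was only 0.006 log2 units. Within groups the 68 libraries without CRMI 1 and SRMI 3 gave weaker values of 0.495, 0.383 and 0.555. These are descriptions of group means that share scaling and depth. The pairs named here had the highest r of all pairs of members. How many other features reach such r with these genes was not counted, so the pattern is not shown to be particular to them.

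**Figure D3:**
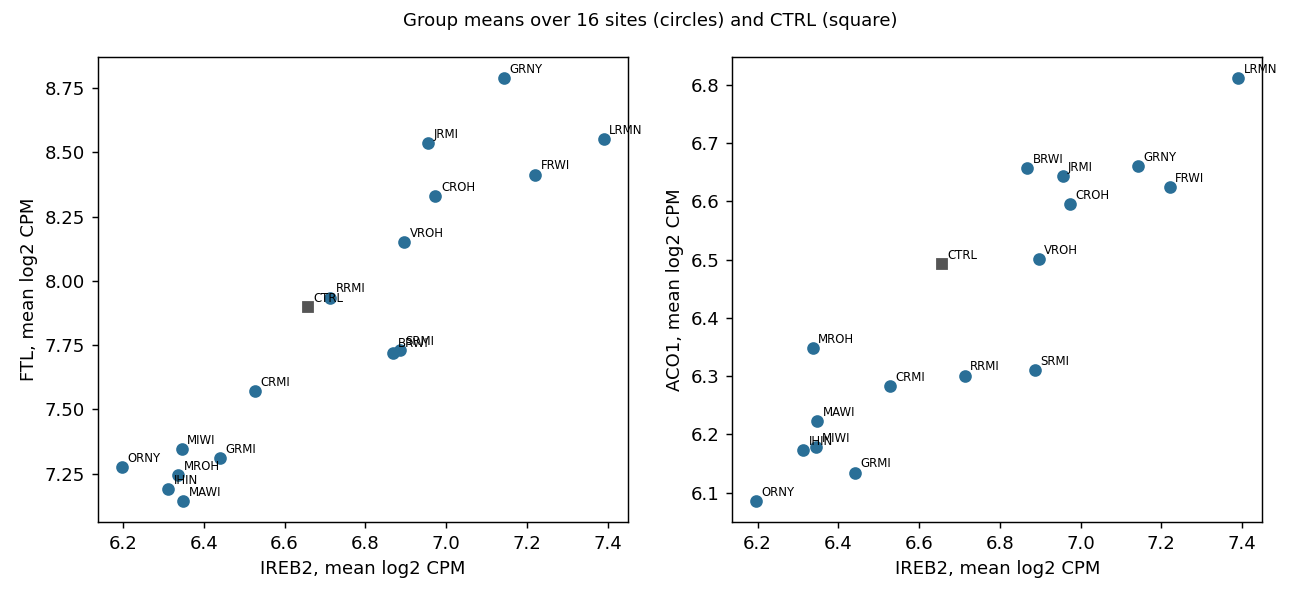
Mean log2 CPM of FTL (left) and ACO1 (right) against IREB2 for 16 sites (circles) and CTRL (square). LRMN lies highest and ORNY lowest on the IREB2 axis, with r = 0.924 for FTL and r = 0.904 for ACO1 over 17 groups.

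The F test between the 16 sites called HAMP (F = 17.98), INHBB (10.7), FTL (8.05), ACO1 (6.06) and IREB2 (4.32), and not ID1, HFE, FTH1, FBXL5 or NCOA4. It called 37.8% of all features, so 5 of 10 members is a share near the background. Without the 3 libraries it also called NCOA4 (F = 5.45), where 49.8% of features were called. With CRMI 1 alone left out NCOA4 had F = 5.34. IREB2 had F = 7.20 without SRMI 3 alone.

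FTH1 encodes the ferritin heavy chain, which oxidises iron as it enters the shell, and lies on chromosome 11 from 61964285 to 61967634. Its levels hardly separated the groups. Site means ran between 987 CPM at BRWI and 1506 CPM at GRNY, against 1160 ± 167 CPM in controls (SD, n = 8). No site was called by edgeR or DESeq2, and none had an unadjusted p under 0.05. In CRMI, CRMI 1 had 2647 CPM and the other dishes 915 to 992 CPM, and the log2 change was 0.25 with it and -0.29 without it. The log2 ratio of FTL to FTH1 counts was -1.59 ± 0.31 at LRMN, -1.73 ± 0.18 at GRNY and -2.88 ± 0.32 at ORNY (SD, n = 4 each), against -2.27 ± 0.30 in controls (SD, n = 8). Probe efficiency enters such a ratio, so it is compared between groups only.

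NCOA4, the cargo receptor that takes ferritin to lysosomes, lies on chromosome 10 from 46005088 to 46030623 (minus strand). At BRWI it had 1941, 2403, 2155 and 1894 CPM and at LRMN 2373, 2030, 2158 and 1844 CPM, against 1466 to 1854 CPM (median 1644) in controls. Every BRWI dish was above every control, and at LRMN 3 of 4 were. The log2 changes of 0.36 ± 0.19 at BRWI and 0.37 ± 0.19 at LRMN (SE) were not called on the 70 libraries. CRMI 1 had NCOA4 at 227 CPM; with it left out alone both sites were called, at log2 changes of 0.36 and 0.37, as they were without the 3 libraries (SE 0.09 at each). The background share at BRWI in that last fit was 1.14%. At CROH, where the HAMP log2 change was 0.18, NCOA4 had 1957, 1941, 1806 and 1876 CPM, with 3 of 4 dishes above every control and a log2 change of 0.22 that was not called. At CRMI the log2 change was -0.39 with CRMI 1 and -0.04 without it.

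FBXL5 encodes the iron-binding F-box protein that sends iron regulatory proteins for degradation, and lies on chromosome 4 from 15604381 to 15681569 (minus strand). It was near the limit of the assay, with a median of 26 counts per library. Site means ran between 2.66 CPM at CRMI and 5.24 CPM at BRWI, against 2.16 to 4.98 CPM in the 8 control dishes. No site was called by edgeR or DESeq2, and none had an unadjusted p under 0.05. CRMI 1 had 0 counts, which allows up to 0.366 CPM (3 counts), and the log2 change at CRMI was -0.64 with it and -0.04 without it. Standard errors of its site log2 changes were 0.39 to 0.48, so small changes were not detectable at this depth.

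Dishes of the same group also varied together in some of these genes. Within groups, over the same 68 libraries, FTH1 and FBXL5 had r = -0.606, FBXL5 and NCOA4 0.622, ID1 and FTL -0.614, and ID1 and FTH1 -0.583. These pairs had the largest r in size of all pairs of members within groups. Over the 17 group means the same pairs had r = -0.590, 0.537, -0.437 and -0.288. GRNY 2, GRNY 3 and JRMI 2 had FTH1 at 1882, 1823 and 1850 CPM with FBXL5 at 0.754, 1.24 and 0.954 CPM and ID1 at 372, 316 and 258 CPM. Over 3312 features the SDs of the log2 differences of these libraries from their groups were 0.671, 0.464 and 0.796. How far the member values follow such differences over all features was not tested. FTH1 also moved with the log2 library total within groups (r = 0.507). The part of depth and of shared scaling in this was not tested.

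Counted over all 10 genes and 16 sites, 7 of 160 pairs were called: HAMP at BRWI and LRMN, INHBB at BRWI, RRMI and MAWI, HFE at CRMI and IREB2 at LRMN. Over all tested features 1.93% of pairs were called. Without VROH 2, CRMI 1 and SRMI 3 there were 16, of which 6 were shared, and the pair lost was HFE at CRMI; over all features 4.09% of pairs were called in that fit. The pairs gained were ACO1 at CRMI, LRMN and ORNY, FTL at GRNY, LRMN and MAWI, NCOA4 at BRWI and LRMN, IREB2 at GRNY and INHBB at JRMI. IREB2 at GRNY was 118, 142, 111 and 212 CPM and changed by 0.52 ± 0.17, and INHBB at JRMI was 2.18, 5.01, 3.70 and 1.91 CPM and changed by -0.70 ± 0.21 (log2, SE, without the 3 libraries). Background shares without the 3 libraries were 2.91% at JRMI and 2.86% at RRMI. With the 70 libraries they were 4.16% at CROH, 0.331% at FRWI, 0.115% at GRMI, 0.101% at IHIN, 1.09% at JRMI, 0.0144% at MIWI, 1.58% at ORNY and 3.17% at SRMI. As the unweighted mean of the 16 sites against controls, no member was called by edgeR or DESeq2, and 0.101% of features were called. An unadjusted p under 0.05 was found for 1 member, HAMP (log2 change -0.45 ± 0.13, SE), and for 204 of all 6943 features.

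**Figure D4:**
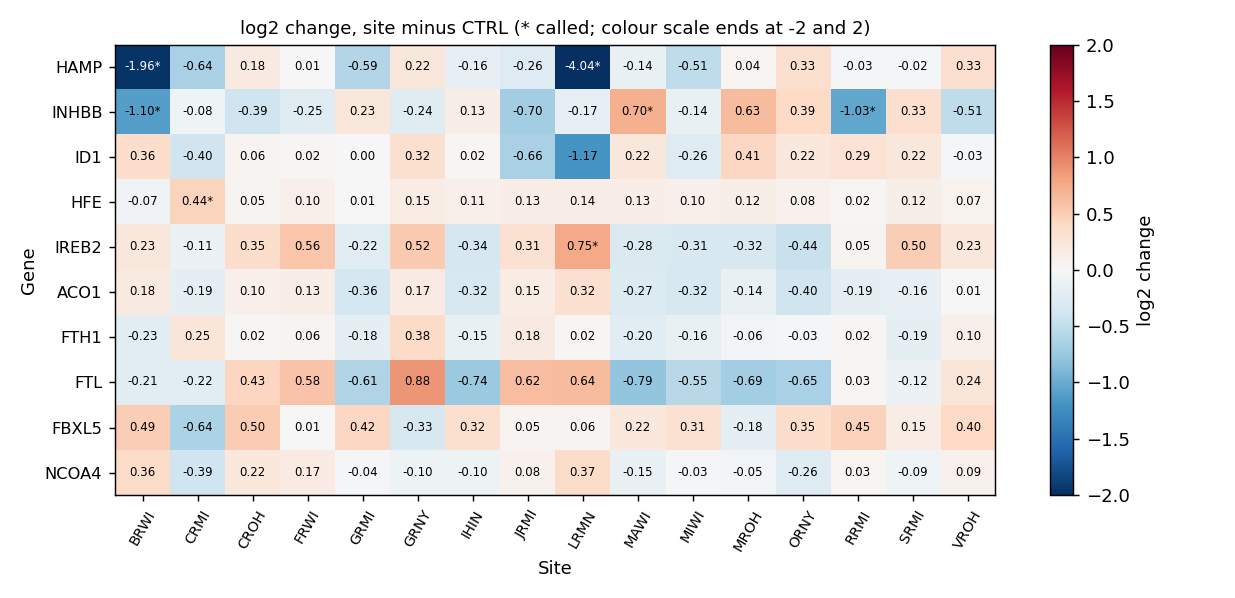
Log2 change of each gene (down) at each site (across), site minus CTRL, with called pairs starred and the colour scale ending at -2 and 2. HAMP at LRMN (-4.04) and BRWI (-1.96) stand out, and the IREB2, ACO1 and FTL rows change sign at nearly the same sites.

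The wider BMP and activin route was read from lists of other genes. ID2, a BMP target like ID1, was the only one of 4 listed targets with enough counts to test, and it fell at LRMN. It had 83.4, 83.7, 64.5 and 57.9 CPM there, against 121 to 194 CPM in controls, without overlap. The log2 change was -1.13 ± 0.22 (SE, adjusted p = 0.000303), and no left-out library ended the call. At BRWI its 117, 83.7, 95.9 and 159 CPM overlapped the controls, with a log2 change of -0.47 that was not called.

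Among 4 tested BMP and activin ligands, 3 of 64 gene and site pairs were called, 4.69% against 1.93% over all features. Without VROH 2, CRMI 1 and SRMI 3 the list had 3.12% called against 4.09% over all features. INHA, the inhibin alpha subunit that turns activin subunits into inhibins, rose at LRMN to 13.9 ± 1.12 CPM (SD, n = 4), against 7.48 ± 1.94 CPM in controls (SD, n = 8; log2 change 0.90 ± 0.22, SE, adjusted p = 0.00451). INHBE, the activin E subunit made in liver, fell at BRWI to 24.1 ± 2.49 CPM (SD, n = 4), against 38.0 ± 4.03 CPM in controls (SD, n = 8; log2 change -0.66 ± 0.15, SE, adjusted p = 0.0246). INHBE also rose at CRMI, with a log2 change of 0.44 ± 0.14 (SE) that sat at the threshold (adjusted p = 0.05) and was lost in 28 of 70 fits without a single library. The list's median log2 change was 0.15 at LRMN and -0.11 at BRWI, beside -0.01 for all features at each.

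None of the 112 pairs of 7 tested BMP and activin receptors and co-receptors was called by edgeR on the 70 libraries. DESeq2 gave 102 of these pairs an adjusted p and called 0. In edgeR 12 pairs had an unadjusted p under 0.05, where 302 to 1677 of all 6943 features had such a p at a site. Without the 3 libraries edgeR called 2 of them up and 1 down (2.68%). Among 7 tested genes listed as inhibitors of the route, 3 of 112 pairs (2.68%) rose on the 70 libraries and 5 (4.46%) without the 3. FURIN, a protease that cuts the hepcidin co-receptor hemojuvelin as well as hepcidin's own precursor, rose at CROH to 4.78 ± 1.29 CPM and at RRMI to 4.46 ± 0.80 CPM (SD, n = 4 each), against 2.40 ± 0.67 CPM in controls (SD, n = 8). Its log2 changes were 1.01 ± 0.25 and 0.89 ± 0.25 (SE, adjusted p = 0.0112 at CROH and 0.0437 at RRMI). The F test between sites did not call FURIN (adjusted p = 0.131). BAMBI, a decoy receptor, rose at CRMI by 0.30 ± 0.10 log2 units (SE, adjusted p = 0.0455), and 0.14 remained without CRMI 1 (not called).

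Of the cytokine, growth factor and liver factor inputs, 4 of 224 pairs (1.79%) were called, and 4.46% without the 3 libraries, both shares near those of all features. CEBPA, a liver factor that activates HAMP, fell at LRMN by 0.61 log2 units (adjusted p = 0.017) and rose at SRMI by 0.70 (adjusted p = 0.00633), and the second call ended without SRMI 3 (0.47). MET, the hepatocyte growth factor receptor, rose at LRMN by 0.49 (adjusted p = 0.00442), and EGFR rose at CROH by 1.19 (adjusted p = 0.0244).

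Iron movement, haem and plasma iron genes had 11 of 384 pairs called (2.86%), 8 up and 3 down, and 12 up and 7 down without the 3 libraries (4.95%). ABCG2, an exporter of porphyrins and drugs, rose at LRMN by 0.51 (adjusted p = 0.0014) and fell at CRMI by 0.44 (adjusted p = 0.0116), and the CRMI value was -0.23 and not called without CRMI 1. ALAS1, the rate-limiting enzyme of liver haem synthesis, rose at CRMI by 0.31 (adjusted p = 0.0171), and by 0.24 without CRMI 1 (not called). HP, or haptoglobin, which captures haemoglobin in plasma, fell at LRMN by 0.56 (adjusted p = 0.0338).

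Among 3 other tested messenger RNAs with an iron-responsive element, 1 of 48 pairs was called (2 without the 3 libraries): EPAS1, or HIF-2 alpha, rose at CROH by 0.45 log2 units (adjusted p = 0.0255). Neither the 25 tested genes of iron-sulphur cluster assembly (0 of 400 pairs) nor the 7 of iron-dependent oxygen sensing (0 of 112) had a call by edgeR on the 70 libraries. The numbers at an unadjusted p under 0.05 were 20 and 12, where 302 to 1677 of all 6943 features had such a p at a site. DESeq2 gave 369 and 107 of the pairs an adjusted p and called 0 and 1. Without the 3 libraries edgeR called 2 up and 4 down in the first list and 1 up and 1 down in the second, 1.5% and 1.79% of pairs. A single left-out library ended the calls of FURIN at CROH (CROH 3) and EGFR at CROH (CROH 3 or CROH 4), with highest adjusted p of 0.12 and 0.147. It also ended EPAS1 at CROH, CEBPA at LRMN, INHBE at BRWI, HP at LRMN and FURIN at RRMI; those libraries are named in the closing section.

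The features whose 17 group means of log2 CPM were most like HAMP included ID2 (Pearson r = 0.851), KCNC4 (0.838), MASTL (0.807) and GATA1 (0.805). Without LRMN, ID2 stood at 0.673, KCNC4 at 0.563, GATA1 at 0.448 and MASTL at 0.394. The most opposite were CYP2J2 (-0.81), MT2A (-0.786), MT1F (-0.775), MT1M (-0.747) and BTN3A1 (-0.732). Such an r does not give the size of a change. At LRMN the log2 change was 0.24 for CYP2J2 and 0.15 for BTN3A1, against 1.92 for MT2A, 2.28 for MT1F and 1.98 for MT1M. For ID2, KCNC4, MASTL and GATA1 it was -1.13, -0.50, -0.39 and -0.75. MT1M, a metallothionein that binds zinc, copper and cadmium, had 61.7, 66.0, 64.7 and 59.6 CPM at LRMN and 75.6, 61.2, 71.4 and 83.8 CPM at BRWI, against 10.3 to 22.2 CPM in controls. Without LRMN the r with HAMP was -0.721 for MT1M, -0.719 for CYP2J2, -0.63 for BTN3A1, -0.625 for MT2A and -0.497 for MT1F. These correlations are over group means, the controls included, that share scaling and depth.

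**Figure D5:**
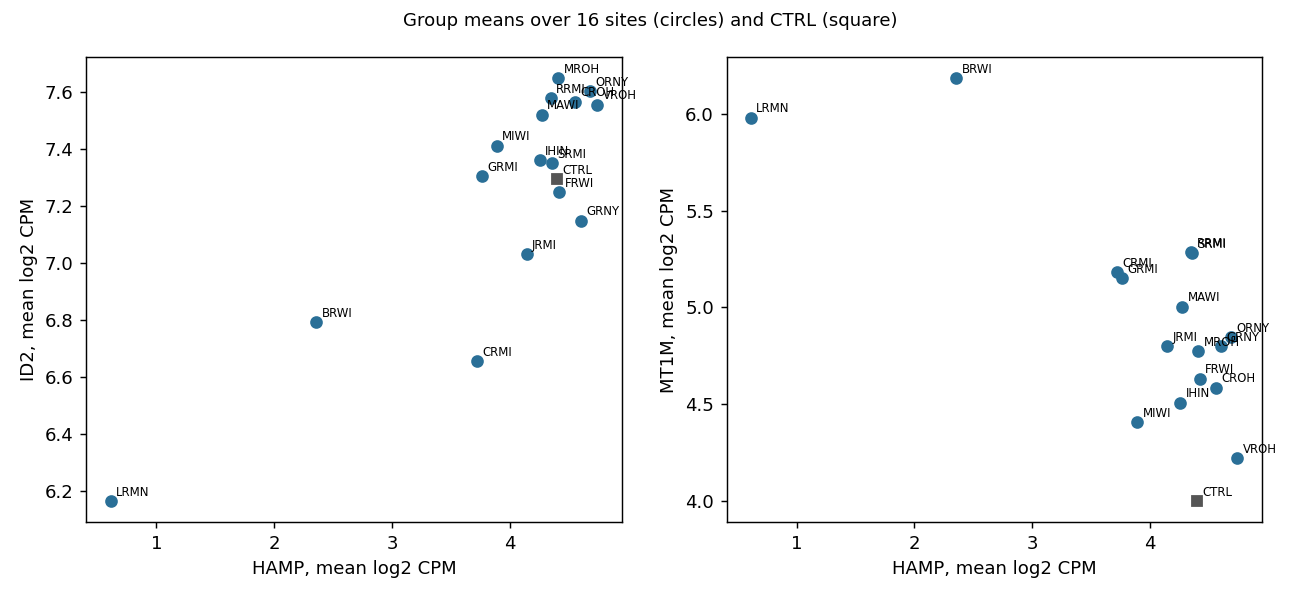
Mean log2 CPM of ID2 (left) and MT1M (right) against HAMP for 16 sites (circles) and CTRL (square). LRMN and BRWI lie at the low end of HAMP, with ID2 low at LRMN and MT1M high at both; r over 17 groups is 0.851 and -0.747.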

How the data were processed

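Gene expression was measured by TempO-Seq in HepG2 dishes at 16 sites and in controls. The values the authors deposited are estimated counts per gene, made with Salmon on GRCh38 per the submitters' processing notes. Their normalization and the Salmon version are not stated. The deposited table's name calls the values normalized, but in each library 1 read was worth 0.994 to 1.00 and a median of 93.2% of values under 20 lay within 0.02 of whole reads. The table is held in part, up to the symbol RAI14; later symbols were not analysed here. MIWI libraries and GRMI 1 carry the numbers of the table's columns, since the labels number them differently.

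Rounded counts went into the quasi-likelihood test of edgeR 4.0.16 under R 4.3.3, with TMM scaling on totals of all features. Of 12346 features with counts, filterByExpr (minimum count 10) left 6943. A mean per group was fitted over 70 libraries with 53 residual degrees of freedom (common BCV 0.249). Libraries under 5% of the median total were left out, which removed VROH 2. Each site, and the unweighted mean of sites, was set against controls, with an F test between sites; adjusted p under 0.05 (Benjamini-Hochberg over all tested features) is called. CPM use TMM-scaled totals and log2 CPM a prior count of 2. SE of log2 changes come from the F value. Intervals and floors cover counting error only. Alternatives were DESeq2 1.42.0, RLE scaling, no filter, all 71 libraries, leaving out VROH 2, CRMI 1 and SRMI 3, the replicate block, each site with controls alone, and each library left out. The procedure was tested on simulated data.

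The members, the gene lists and the libraries singled out were chosen with earlier results of these data known. Named list genes were up to 4 per list called in a site comparison, by number of comparisons and then smallest adjusted p; genes most like HAMP were the 5 highest and 5 lowest Pearson r; some gene results that these rules select are withheld and are not reported here. Promoter windows and gene positions are RefSeq's (GRCh38.p14). Controls were sequenced more deeply than sites. p values measure only the spread between dishes.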

Additional observations from a re-analysis of the deposited data

Results flagged for a closer look

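The F test between sites differed for 5 members, with F values of 17.98 for HAMP, 10.7 for INHBB, 8.047 for FTL, 6.064 for ACO1 and 4.323 for IREB2; these members were chosen with the results in view.

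Within groups of 4 to 10 libraries, 11 of 150 member and group sets held a single library far from the rest by Dixon's criterion, where chance gives about 1 in 20. For INHBB they were BRWI 2 at 3.46 CPM (nearest other dish of its site 2.23), CRMI 3 at 3.40 (5.13), FRWI 4 at 2.99 (4.52) and ORNY 4 at 4.75 (7.13). For IREB2 they were GRMI 2 at 106 CPM (82.2), ORNY 4 at 104 (69.2) and SRMI 3 at 321 (91.6). The others were ID1 in GRNY 4 at 3760 CPM (818), HFE in SRMI 4 at 16.5 (22.4), FTH1 in CRMI 1 at 2650 (992) and NCOA4 in RRMI 1 at 1990 (1570). ORNY 4 was thus apart for both INHBB and IREB2, low in the first and high in the second. The called INHBB value at BRWI held without BRWI 2.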

How the results depend on the processing

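The 7 member and site pairs called became 16 without VROH 2, CRMI 1 and SRMI 3 (6 shared). They became 14 with each site and the controls alone (6 shared) and 4 with the replicate number as a block (all shared). DESeq2 gave 10 (6 shared) and RLE scaling 7 (all shared). With all 71 libraries, and likewise with no filter, there were 6 (all shared). Leaving out single libraries gave 6 to 13, with 13 without CRMI 1. For the DESeq2, RLE, unfiltered, 71-library, site-alone, block and single-library fits no share over all features is set beside these counts. A general change in the number of calls therefore cannot be told apart from a change in the members. At the mean of sites the count was 0 throughout, and between sites it was 5 to 6 in fits that left out a library. Pathway lists had 23 calls, 11 with all 71 libraries and 50 without the 3, where the share of calls over all features was 4.09% instead of 1.93%; the cause was not tested. The block fit left out MIWI and GRMI 1, and controls 5 to 8 share no number with a site. The median r of same-numbered deviations was 0.0313 over 450 pairs, 173 of them over 0.1. For other-numbered deviations it was 0.00281 over 1583 pairs, 625 of them over 0.1. Whether the numbers mark a shared batch was not tested. The block fit ended the calls of HFE at CRMI, IREB2 at LRMN and INHBB at MAWI. INHBB at MAWI was also not called with all 71 libraries or without the filter, and DESeq2 gave INHBB at BRWI no adjusted p. Single libraries also brought calls: HAMP at CRMI (log2 change -0.90) without CRMI 3, IREB2 at SRMI (0.71) without SRMI 2, INHBB at JRMI (-0.97) without JRMI 2, FTL at GRNY without control 1 (0.96) or SRMI 3 (0.88), and ACO1 at LRMN without CRMI 1 or SRMI 3 (0.32 each). No called pair changed sign under an alternative. Of the 5 genes most like HAMP, 3 stayed among the highest without the 3 libraries, and 3 of the 5 lowest stayed among the lowest. List calls that single libraries ended were EPAS1 at CROH (CROH 2, 3 or 4; adjusted p up to 0.145), CEBPA at LRMN (LRMN 1 or 3; 0.0665), INHBE at BRWI (any BRWI library or control 5; 0.159), HP at LRMN (any LRMN library, control 5 or 6; 0.0896), FURIN at RRMI (RRMI 2, 3 or 4, control 1, 3, 5 or 8; 0.223) and BAMBI at CRMI (CRMI 1, control 5 or 6; 0.423). Depth limits HAMP at LRMN (29 counts in all) and the INHBB and FBXL5 levels (medians of 27 and 26 counts per library). FURIN was also low, at a mean of 2.40 CPM in controls.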
